A study of Ailuropoda melanoleuca with 25 samples.

Results

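Growth factors and morphogens are secreted or membrane-bound proteins that carry signals between neighbouring cells or through the blood. A ligand such as a fibroblast growth factor (FGF), a bone morphogenetic protein (BMP) or a WNT protein binds a receptor on the receiving cell, and secreted antagonists and binding proteins set how much free ligand reaches it. In adult tissue the same families act in metabolism, vessel upkeep and repair, and several of their ligands are hormones of a single organ, such as the natriuretic peptides of the heart.

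The genes described here are 44 of the 25376 genes in the deposited table of the giant panda (Ailuropoda melanoleuca). They are all the genes in the study's list of tissue-specific differentially expressed genes whose symbol belongs to a growth factor or morphogen name group, among them WNT, FGF, BMP, GDF, TGFB, VEGF, PDGF, NOTCH, DLL, JAG, IGF, INHB, SFRP, DKK, ANGPT, NRG, EGF, HGF, natriuretic peptide, EPH and EFN. That list was built from comparisons between the tissues of these same libraries, so the level of a gene by tissue is given as a description, with no test, wherever its listed tissue takes part. The name rule also brought in genes that are no classical growth factors, among them the angiopoietin-like proteins, the protease HGFAC and the matrix protein EGFLAM. No VEGF or NOTCH receptor gene was among the 44.

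Heart, liver, spleen, lung and kidney were taken from each of 5 giant pandas after death, which gave 25 messenger RNA libraries, 1 for each tissue of each animal. Panda 1 was a female aged 27 years with ovarian cancer as the labelled cause of death. Panda 2 was a female aged 9 years with the cause given as "ileac pssion". Pandas 3 and 4 were females and panda 5 a male, all aged 0.5 years and with a coronavirus infection as the cause. Age, cause and year of death coincide and cannot be told apart. Values are FPKM, the reads on a gene divided by its length and by all reads of the library, so they can be set side by side between genes. A gene was taken as expressed in a tissue where the mean of its 5 libraries was above 1 FPKM. The tissues are bulk pieces, in which fewer cells of a type and less RNA per cell cannot be told apart.

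Reads on genes, recovered from the steps of the FPKM values, numbered between 13149580 and 21383380 per library (median 16215829). Of the 33 marker genes chosen to check the tissue labels, 24 had an identifier, and none of the fibroblast, endothelial or mesothelial markers did. All 24 are in the study's list of tissue-specific genes, built on these libraries under these labels. Their separation by tissue was therefore largely fixed in advance. The markers that follow went with the label in every library. Cardiac TNNT2 was at 7711 FPKM or above in the heart and at 22.3 or below elsewhere. Hepatocyte AHSG was at 928 or above in the liver and 1.81 or below elsewhere. TLX1, a transcription factor of spleen stroma, lay between 35.2 and 104 in the spleen and at 0.209 or below elsewhere. The surfactant gene SFTPC was at 11570 or above in the lung and at 99.3 or below elsewhere, and tubular UMOD was at 15.4 or above in the kidney and at 0.527 or below elsewhere. Within these ranges, the liver library of panda 3 and the kidney library of panda 4 stood low. AHSG was 928 in the liver of panda 3 against 3403 to 15048 in the other 4 livers, with APOC1 inside the range of the others at 17518. UMOD was 15.4 in the kidney of panda 4, against at least 248 in the other 4 kidneys. For the genes highest in the liver or the kidney, means are given with and without these libraries.

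Each of the 44 genes was expressed in at least 1 tissue. The mean in the highest tissue lay between 1.04 FPKM, for WNT3A in the lung, and 1755 FPKM, for NPPB in the heart, with a median of 29.5. The liver was the highest tissue for 13 of the genes, the lung for 9, the heart and the spleen for 8 each and the kidney for 6. By number of tissues, 18 genes were expressed in a single tissue, 4 in 2, 3 in 3, 13 in 4 and 6 in all 5. The tissue that the study listed was the highest for 39 genes and the lowest for 6, with the receptor FGFR2 counted under both. JAG2, SFRP2, FGF7 and EGFLAM were listed for the liver and lowest there, while FGFR2 was lowest in the heart. For 23 of the 44 genes, the 5 libraries of the highest tissue were all above the 20 other libraries, beside 16.7% of all expressed genes. Since the list was built on these contrasts, that share says nothing about the families. Without the liver library of panda 3 and the kidney library of panda 4 the number was 34, beside 22.2% of all expressed genes, and the highest tissue was unchanged for all 44. Rescaling the libraries by TMM factors moved the highest tissue of EGFLAM and JAG2 to the heart, and so did quantile normalization.

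**Figure D1:**
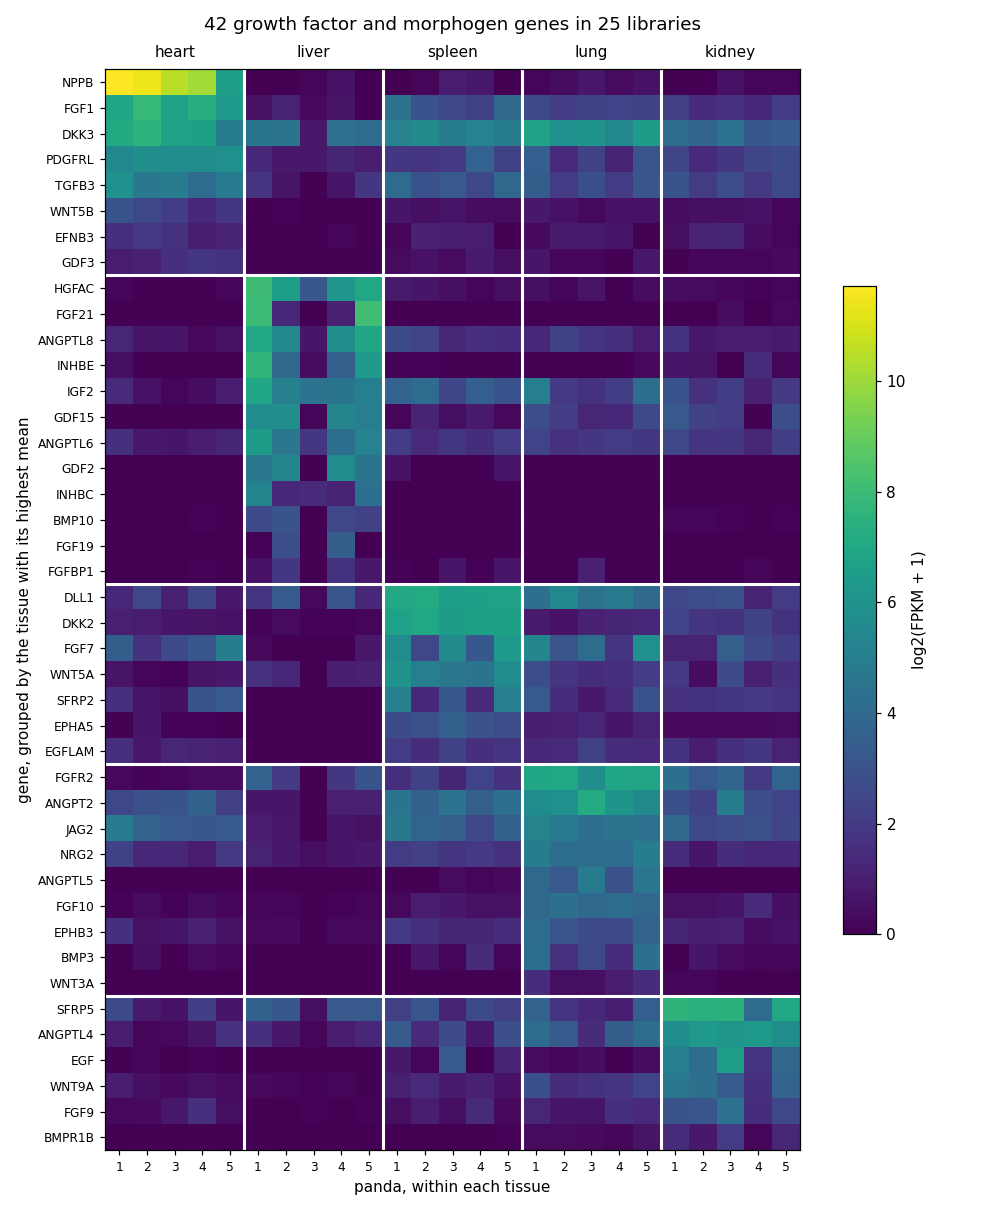
Level of 42 of the 44 genes (rows, grouped by the tissue with the highest mean) in the 25 libraries (columns, pandas 1 to 5 within each tissue), coloured by log2(FPKM + 1). Each block on the diagonal is brightest for its own tissue, and the column of panda 3 in the liver block is dark for most of its 12 genes.

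The strongest signal of the 44 genes came from the heart. NPPB encodes the B-type natriuretic peptide, a hormone of heart muscle that lowers blood volume and pressure. Its level in the heart was 3391 FPKM in panda 1, 2721 in panda 2, 1465 in panda 3, 1104 in panda 4 and 93.0 in panda 5, with a mean of 1755 ± 1311 (SD, n = 5). The heart of the male panda 5 was far below the others and still above every library of the other tissues, where the highest was 0.856. Means outside the heart lay between 0.118 in the liver and 0.375 in the lung. The atrial genes MYL7 and MYL4 varied widely across the same heart libraries, with MYL7 at 47.9, 454, 104, 3.52 and 25.7 FPKM and MYL4 at 9.575, 126, 77.6, 0.1025 and 0.291 in pandas 1 to 5. The ventricular gene MYL2 was between 23304 and 34419. The part of the sampled chamber in the NPPB values was not tested. CORIN, the membrane protease that processes natriuretic peptide precursors and is not a member of the group, was also highest in the heart, at a mean of 6.20, with 1.61 in the kidney and at most 0.956 in the other 3 tissues. In the kidney the CORIN mean rested on panda 4, at 6.42, where the other 4 kidneys were at 0.810 or below.

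The FGF family had members in every tissue. Paracrine FGFs act on nearby cells through the FGF receptors with heparan sulphate as a cofactor, whereas FGF19 and FGF21 circulate as hormones. FGFR2, identifier ENSAMEG00000010959 in the table, is the receptor whose epithelial splice form binds FGF7 and FGF10. The table gives 1 value for the gene and does not separate its splice forms. FGFR2 was at 118 FPKM in the lung of panda 1, 131 in panda 2, 52.8 in panda 3, 123 in panda 4 and 115 in panda 5 (mean 108 ± 31.3, SD, n = 5). The lung of panda 3 was the lowest of the 5 and still above every library of another tissue. The kidney came next, at 19.05, 8.61, 13.4, 2.92 and 12.8 in pandas 1 to 5, a mean of 11.4, followed by the liver at 4.93 and the spleen at 2.70. Heart libraries held between 0.0784 and 0.263, the lowest of the 5 tissues.

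FGF10, the ligand that drives branching of the lung in the embryo, shared its highest tissue with the receptor. Lung values were 15.3, 18.9, 15.0, 16.7 and 14.4 FPKM in pandas 1 to 5, a mean of 16.1 ± 1.81 (SD, n = 5), which was a narrow spread for these genes. The other tissues had means between 0.0941 in the liver and 0.725 in the kidney, and no library outside the lung exceeded the 1.76 in the kidney of panda 4. FGF7, the keratinocyte growth factor made by stromal cells, was spread more widely. In the spleen it was at 51.15, 4.70, 47.2, 8.49 and 81.3 in pandas 1 to 5 (mean 38.6), and in the lung at 40.9, 7.41, 16.8, 2.46 and 58.3 (mean 25.2). Pandas 2 and 4 had the lowest FGF7 values in both tissues, and the libraries of the tissues overlapped. The spleens of pandas 2 and 4 were also the lowest in the B cell gene MS4A1, at 18.0 and 28.8 against 72.8 to 111. Whether this has a part in the FGF7 values was not tested. The heart had a mean of 11.2 and the kidney of 4.32, while the liver had 0.181, with 3 libraries at 0.

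FGF1, the acidic FGF that binds all FGF receptors, was a heart gene in these animals. Heart libraries held 123, 227.5, 112, 165 and 77.3 FPKM in pandas 1 to 5 (mean 141 ± 57.5, SD, n = 5), all above the 20 other libraries. The spleen followed at 10.3, with pandas 1 and 5 at 20.7 and 15.3 and the other 3 spleens between 3.99 and 6.88. The lung, kidney and liver means of FGF1 were 4.14, 2.42 and 0.481. FGF9, a ligand that keeps nephron progenitors in the embryonic kidney, was highest in the kidney at 7.025, 7.80, 20.4, 1.89 and 4.87 (mean 8.39). The kidney of panda 4 lay below the 2.11 found in the heart of the same animal. Without that library the kidney mean was 10.02, and the means of lung, heart, spleen and liver were 1.28, 0.712, 0.690 and 0.0324. Outside the 44, KL, the klotho protein that serves as co-receptor for the bone hormone FGF23, was at 84.7, 35.4, 122, 13.7 and 95.8 in the kidney and had means of 0.214 or below in the other 4 tissues.

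**Figure D2:**
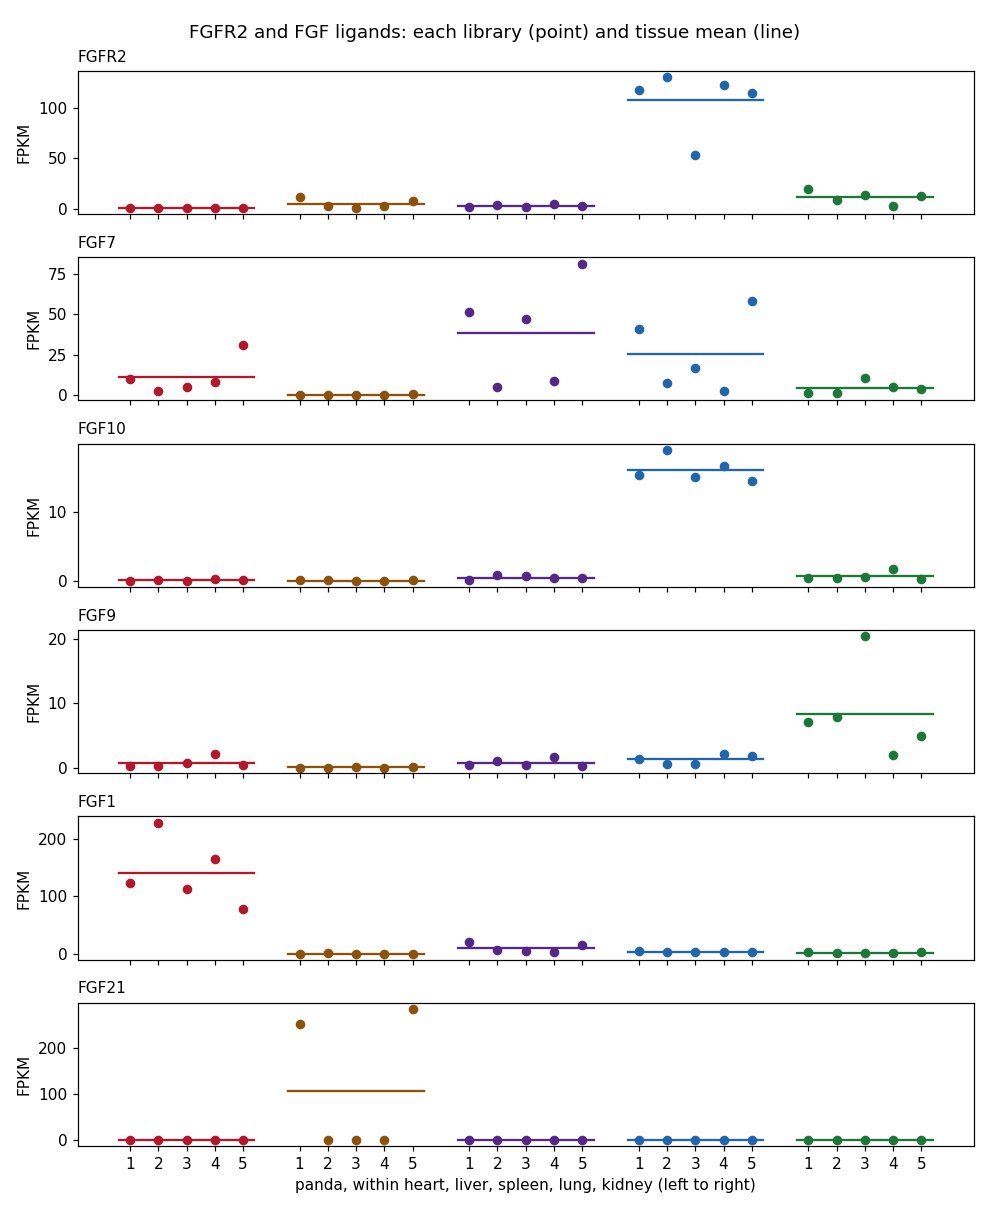
FPKM of FGFR2 and 5 FGF ligands in each of the 25 libraries, with points for pandas 1 to 5 within each tissue, lines for the tissue means and a separate linear axis for each gene. FGFR2 and FGF10 are highest in the lung, FGF7 has wide spreads in the spleen and lung, FGF9 is highest in the kidney, FGF1 in the heart, and FGF21 has 2 liver libraries above 250 with the rest near 0.

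The endocrine FGFs were liver genes with very uneven levels. FGF21, a hormone of fasting and of metabolic stress, was at 251 FPKM in the liver of panda 1 and 283 in panda 5, against 1.56 in panda 2, 1.09 in panda 4 and 0 in panda 3. The liver mean of 107 ± 146 (SD, n = 5), or 134 without panda 3, thus describes none of the 5 animals. Outside the liver, reads were found only in the kidneys of pandas 3 and 5, at 0.295 and 0.186. FGF19, a hormone that restrains bile acid synthesis and is made mainly by the ileum, showed another order. It was at 6.06 in the liver of panda 2 and 10.01 in panda 4, at 0.0864 in panda 1 and at 0 in pandas 3 and 5, with a liver mean of 4.04 without panda 3. FGF19 had 176 reads in all, none of them outside the liver, where 3 reads would correspond to between 0.226 and 0.367 FPKM. The animals with high FGF21 were not those with high FGF19. FGFBP1, which frees FGFs from the matrix, was low, at 0.511, 2.63, 0, 2.31 and 0.764 in the liver (mean 1.24, and 1.55 without panda 3), with a mean of 0.283 in the spleen, 0.218 in the lung and less in the other tissues.

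The liver also held most of the transforming growth factor superfamily members. GDF2 (BMP9) and BMP10 are blood-borne ligands that keep vessels quiescent through the endothelial receptor ALK1. GDF2 was at 24.4 FPKM in panda 1, 40.2 in panda 2, 0.0417 in panda 3, 50.1 in panda 4 and 22.0 in panda 5 (mean 27.4 ± 19.15, SD, n = 5, and 34.2 without panda 3). Panda 3 apart, the livers were all above the highest other library, a spleen at 0.580. BMP10 is best known as a ligand of the right atrium. Of the heart libraries only that of panda 4 held reads of it, at 0.0915. In the liver BMP10 was at 5.14, 7.13, 0, 4.67 and 3.83 (mean 4.15, and 5.19 without panda 3), and other tissue means were at most 0.0968. HAMP, the iron hormone hepcidin, is a target of BMP signalling in hepatocytes. Its liver values were 3443, 31403, 21633, 57134 and 5953 in pandas 1 to 5, so that pandas 1 and 5 were the lowest, and the other tissue means were 20.25 or below. GDF15, a stress hormone that acts on the hindbrain, was at 49.1, 53.35, 0.161, 39.6 and 31.2 in the liver (mean 34.7, and 43.3 without panda 3). Its means were 4.33 in the kidney and 3.43 in the lung, and lower in the spleen (0.549) and heart (0.0230).

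INHBC and INHBE encode the activin C and E subunits, which are known as liver products and lie next to each other in the RefSeq annotation of the panda. INHBC was at 38.6 FPKM in panda 1, 1.59 in panda 2, 1.625 in panda 3, 1.245 in panda 4 and 18.2 in panda 5 (mean 12.3, and 14.9 without panda 3), with no read in any of the 20 other libraries. A library without a read could hold up to between 0.132 and 0.215 FPKM by counting error alone. INHBE followed the same order of pandas 1 and 5 above the others, at 205, 14.7, 0.306, 10.6 and 80.4 (mean 62.2 ± 85.7, SD, n = 5, and 77.6 without panda 3), and its other tissue means were 0.639 in the kidney and 0.08925 or below elsewhere.

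Other members of this superfamily were highest outside the liver. TGFB3, a transforming growth factor of mesenchymal tissue, was at 60.25, 25.1, 30.25, 16.2 and 28.6 FPKM in the heart (mean 32.1 ± 16.65, SD, n = 5), with panda 1 above the rest. The spleen, lung, kidney and liver had means of 10.1, 5.997, 4.85 and 1.25. LTBP2, a matrix protein related to the binding proteins of latent TGF-beta, had a mean of 47.8 in the spleen and 32.4 in the lung against 0.215 in the liver. GDF3, a ligand of early embryos, was low in the heart, at 0.8455, 1.12, 2.02, 2.635 and 2.24 (mean 1.77), and its other tissue means were at most 0.427. BMP3, which restrains bone formation, was at 18.0, 2.24, 4.89, 1.82 and 18.8 in the lung (mean 9.16), where pandas 1 and 5 were the highest, and its next mean was 0.552 in the spleen. BMPR1B, the only BMP receptor among the 44, was at 1.83, 0.755, 3.24, 0.115 and 1.40 in the kidney (mean 1.47 with panda 4 and 1.81 without it) and had a mean of 0.293 in the lung and 0.0265 or below elsewhere. CER1, a secreted BMP antagonist that is not among the 44, was a low kidney gene with a mean of 1.65 and at most 0.0823 elsewhere.

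**Figure D3:**
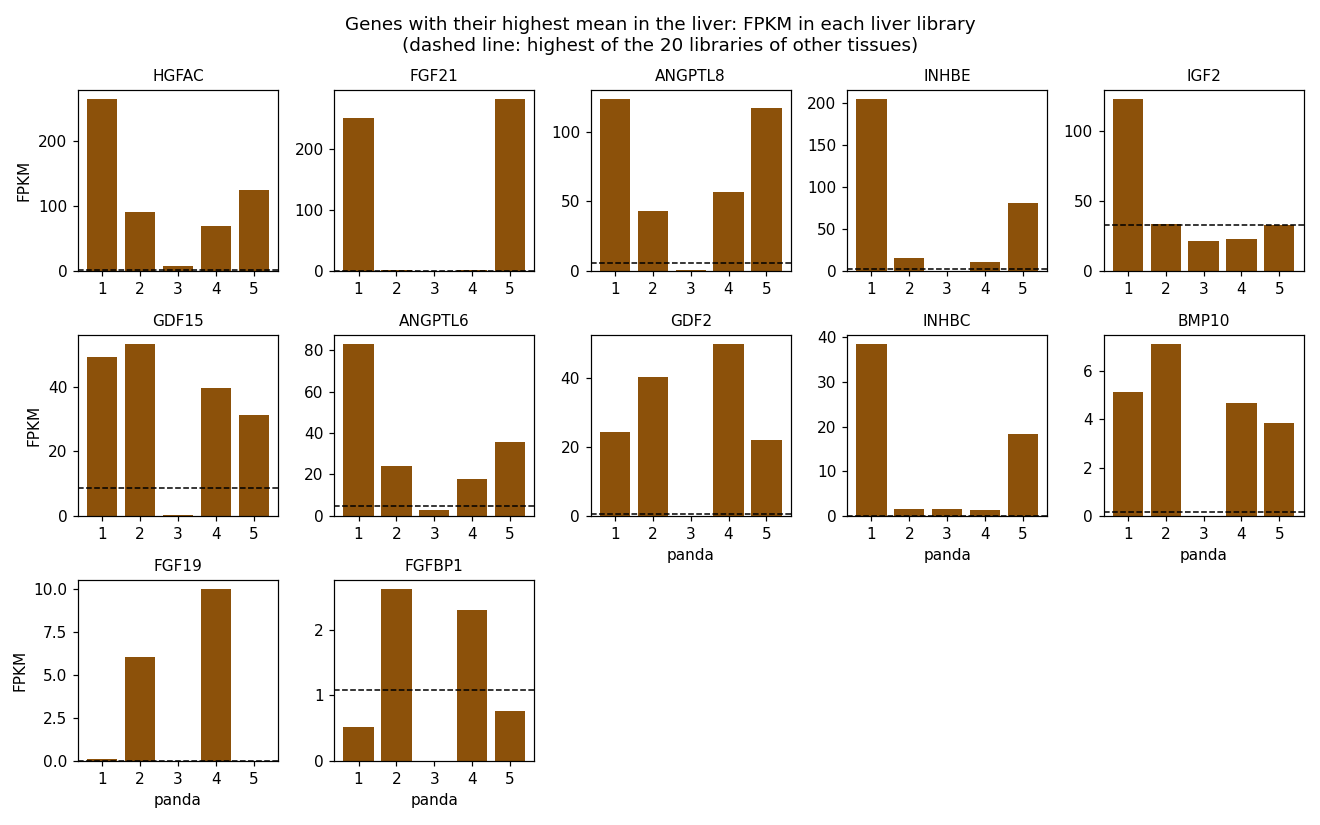
FPKM of 12 of the 13 genes with their highest mean in the liver, in the liver library of each panda (bars, linear axes from 0), with a dashed line at the highest of the 20 libraries of other tissues. Panda 3 has the lowest bar for 11 of these 12 genes, and FGF21, INHBC and INHBE are highest in pandas 1 and 5 while FGF19 is highest in pandas 2 and 4.

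Across the 13 liver genes the library of panda 3 was the lowest 11 times, at a median of 0.0115 times the median of the 5 livers. INHBC was among the genes not lowest there. FGF19, at 0 in panda 5 as well, is counted with the 11. The hepatocyte genes AHSG, FGA and SERPINC1 were lowest in that library too, at 928, 146 and 131 FPKM against at least 3403, 1109 and 1197 in the other 4 livers. The hepatocyte gene APOC1 was not low there, at 17518, inside the range of 10958 to 20534 in the other livers. LRAT, a gene of hepatic stellate cells, was 0.154 there, from 2 reads, against 0.566 to 4.99. The part of the state of this library in the liver values was not tested. Panda 1 had the highest value for 6 of the 13 genes, panda 2 for 3, and pandas 4 and 5 for 2 each.

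WNT ligands bind Frizzled receptors, and the secreted frizzled-related proteins (SFRP) and most Dickkopf proteins (DKK) hold their signal back. WNT5A, a ligand of the pathway that does not use beta-catenin, was at 63.0 FPKM in the spleen of panda 1, 32.9 in panda 2, 24.4 in panda 3, 22.15 in panda 4 and 49.5 in panda 5 (mean 38.4 ± 17.5, SD, n = 5). All 5 spleens were above the 20 other libraries, whose tissue means lay between 0.4025 in the heart and 3.19 in the lung. Its close relative WNT5B was highest in another tissue, the heart, at 7.23, 4.83, 3.41, 1.44 and 2.67 (mean 3.92), with means of 0.477 or below elsewhere. ROR1, a receptor of WNT5A, was at means of 3.44, 3.24 and 3.19 in heart, lung and spleen, of 1.64 in the kidney and of 0.0811 in the liver. WNT9A was a kidney ligand here, at 24.75, 19.3, 8.90, 2.13 and 12.2 (mean 13.5, and 16.3 without panda 4), with 3.41 in the lung and 1.04 or below in the remaining tissues. WNT3A, its neighbour in the RefSeq annotation and an activator of beta-catenin, was barely above the threshold and in the lung only, at 1.80, 0.358, 0.342, 0.838 and 1.85 from 85 reads. Outside the lung only the kidney held reads of WNT3A, at a mean of 0.0598.

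Among the WNT modulators, DKK2 and SFRP5 each had a single tissue far above the rest. DKK2 was at 103, 125, 88.1, 99.9 and 101 FPKM in the spleen (mean 103 ± 13.3, SD, n = 5), with a narrow spread, and next at 2.99 in the kidney, with 1.04, 0.730 and 0.119 in lung, heart and liver. SFRP5 was at 198, 174, 184, 16.0 and 127 in the kidney (mean 140 ± 74.2, SD, n = 5), and the low kidney of panda 4 was still above every other library. Without panda 4 the kidney mean was 171, and other tissue means ran from 2.101 in the heart to 7.40 in the liver. DKK3, a family member that does not bind the usual WNT co-receptors, was present in every tissue. Its heart values were 140, 189, 103, 99.2 and 30.8 (mean 112 ± 58.1, SD, n = 5) and its lung values 109, 59.8, 66.3, 43.55 and 89.3 (mean 73.6), so that heart and lung overlapped. The spleen had 35.9, the liver 16.7 and the kidney 13.85. SFRP2, an antagonist of stromal cells, was at 33.6, 1.565, 8.315, 1.76 and 33.75 in the spleen (mean 15.8), with pandas 2 and 4 the lowest as for FGF7. No read of SFRP2 was found in any liver, and its means were 4.03 in the lung, 3.82 in the heart and 2.53 in the kidney. RSPO1, an agonist that strengthens WNT signals, was a lung gene with a mean of 5.20 against 0.690 or below elsewhere.

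NOTCH ligands sit in the membrane and signal to the adjoining cell. DLL1, which directs marginal zone B cells in the spleen of mice, was at 134.5, 145, 95.6, 97.6 and 107 FPKM in the spleen (mean 116 ± 22.4, SD, n = 5), above all 20 other libraries. The lung came second at 24.7, with 43.0 in panda 2 as its highest library, and the other means were 4.36 in the kidney, 4.28 in the liver and 2.52 in the heart. JAG2 was broader, with a lung mean of 24.9 from values of 36.5, 27.2, 17.9, 22.1 and 20.7. The heart and spleen were both at 12.8, with libraries that overlapped the lung, the kidney was at 7.41, and the liver was set apart by a mean of 0.539. HEY2, a NOTCH target gene of ventricular muscle, was at 38.0, 89.6, 78.3, 146 and 42.4 in the heart, where its mean was 78.9, with means of 8.69, 4.45, 4.13 and 0.256 in lung, kidney, spleen and liver.

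Epidermal growth factor (EGF) is made by the thick ascending limb and distal tubule of the kidney. EGF was at 32.3 FPKM in the kidney of panda 1, 17.6 in panda 2, 91.9 in panda 3, 2.52 in panda 4 and 13.6 in panda 5 (mean 31.6 ± 35.4, SD, n = 5, and 38.8 without panda 4). The spleen of panda 3 was also high, at 9.36, above the kidney of panda 4, while the other 4 spleens were at 1.17 or below. UMOD and SLC12A1, the tubular genes of the segment that makes EGF, were at 0.152 and 0.111 in that spleen, against 1217 and 415.5 in the kidney of the same animal. An assembled gene that the study describes as pro-epidermal growth factor-like, Novel04972, had a like pattern, at 22.8, 7.46, 79.8, 3.235 and 9.42 in the kidney and 4.87 in the spleen of panda 3. Whether the 2 entries are parts of 1 gene cannot be told apart here, and reads may be divided between them. Means of EGF outside the kidney and spleen were 0.201 or below. NRG2, a neuregulin that signals through ERBB receptors, was at 30.8, 17.9, 17.6, 16.4 and 29.8 in the lung (mean 22.5 ± 7.16, SD, n = 5), above all other libraries, with means between 0.732 in the liver and 2.92 in the spleen elsewhere. Of the other ligands of the EGF receptor family, AREG was a spleen gene at a mean of 61.15, with 7.70 in the lung and 1.47 or below elsewhere. EREG had means of 18.5 in the lung and 14.8 in the spleen, and its liver, kidney and heart means were 8.07, 3.23 and 0.322. The liver of panda 3 held 0.242 of EREG, against 7.057 or above in the other livers.

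**Figure D4:**
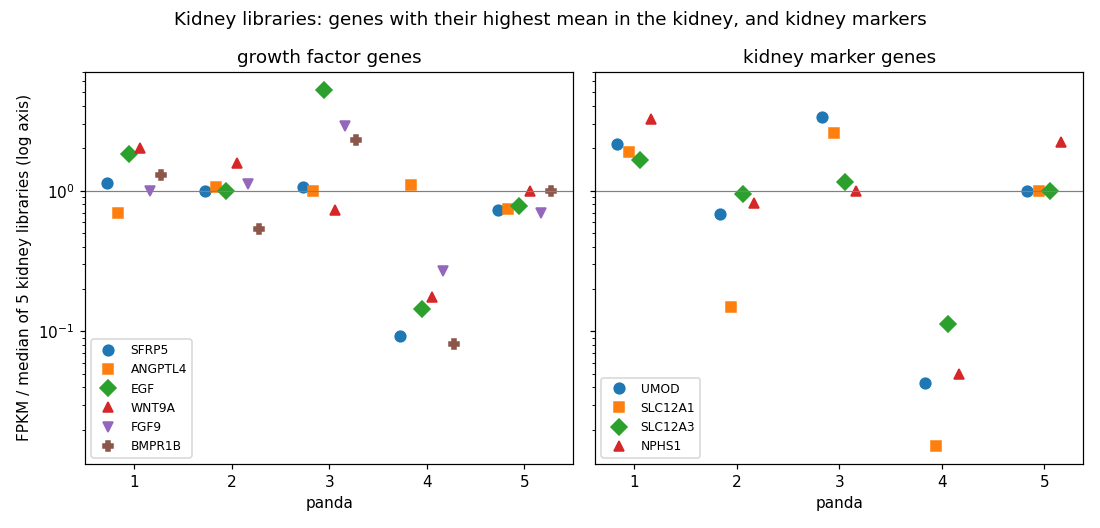
FPKM in each kidney library divided by the median of the 5 kidney libraries (log axis), for the 6 genes with their highest mean in the kidney (left) and for 4 kidney markers (right). The library of panda 4 lies lowest for 5 of the 6 genes and for all 4 markers, while ANGPTL4 is highest there.

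Among the 6 kidney genes, the library of panda 4 was the lowest for 5, at a median of 0.159 times the kidney median over all 6. The tubular genes UMOD, SLC12A3 and SLC12A1 and the podocyte gene NPHS1 were lowest in that library too. SLC12A3 was 17.9 against 150.5 or above in the other kidneys, SLC12A1 2.47 against 24.1 or above and NPHS1 0.701 against 11.5 or above. The part of the piece of kidney sampled was not tested.

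Hepatocyte growth factor is activated from its precursor by proteases, and HGFAC is the one secreted by the liver. HGFAC was at 265 FPKM in panda 1, 90.0 in panda 2, 8.001 in panda 3, 68.9 in panda 4 and 125 in panda 5 (mean 111 ± 95.7, SD, n = 5, and 137 without panda 3). Even the lowest liver was above every other library, the highest of which was a spleen at 0.821. Hepsin (HPN) and matriptase (ST14), membrane proteases that also cleave the precursor, were shared between organs. HPN had means of 244 in the liver and 170.4 in the kidney, while lung, heart and spleen were at 7.03, 2.20 and 0.944. HPN was at 22.1 in the liver of panda 3, against 237 or above in the other livers. In the kidney of panda 4 it was at 27.5, against 176.5 or above in the other kidneys. ST14 had 28.6 in the kidney and 23.8 in the lung, and spleen, liver and heart were at 2.35, 1.36 and 0.179. In the kidney of panda 4 ST14 was at 2.84, against 25.47 or above in the other kidneys. MET, the receptor of hepatocyte growth factor, had means between 8.32 and 13.1 in 4 tissues and of 0.320 in the heart. In the liver of panda 3 MET was at 0.703, against 12.45 or above in the other livers. IGF2, the fetal insulin-like growth factor that some mammals keep making in the adult liver, was at 123, 33.75, 21.3, 22.9 and 32.7 in the liver (mean 46.7 ± 43.0, SD, n = 5, and 53.1 without panda 3). The oldest animal was thus the highest, and IGF2 also reached 32.8 in the lung of that panda. The lung, spleen, kidney and heart means of IGF2 were 11.8, 9.975, 3.275 and 0.6945.

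Angiopoietins act on the endothelial receptor TIE2, where ANGPT2 loosens vessels that ANGPT1 keeps stable. ANGPT2 was at 51.2, 58.15, 148, 66.5 and 47.7 FPKM in the lung (mean 74.2 ± 41.7, SD, n = 5), above all 20 other libraries. Panda 3 had the highest lung and also the highest kidney value, at 29.2 against 3.75 to 6.28 in the other 4 kidneys. The spleen mean was 16.6, the kidney 9.83, the heart 6.775 and the liver 0.693.

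The angiopoietin-like proteins resemble the angiopoietins in sequence but do not bind TIE2, and several regulate the enzymes that clear blood triglycerides. ANGPTL8, a regulator of lipoprotein lipase, was a liver gene. Its liver values were 124, 43.0, 0.653, 56.7 and 117 in pandas 1 to 5 (mean 68.3 ± 52.0, SD, n = 5, and 85.2 without panda 3), with panda 3 by far the lowest. ANGPTL4, which inhibits this lipase in fasting, was highest in the kidney instead, at 51.3, 77.6, 73.3, 80.4 and 54.0 (mean 67.3 ± 13.7, SD, n = 5, and 64.05 without panda 4). It was the only kidney gene whose highest library was that of panda 4. The next means of ANGPTL4 were 10.8 in the lung and 4.63 in the spleen, with 1.08 in the liver and 0.783 in the heart. Outside the liver, ANGPTL8 had means from 0.661 in the heart to 2.99 in the spleen. ANGPTL6, a liver factor linked to energy use, was at 83.3, 24.3, 2.60, 17.7 and 35.9 in the liver (mean 32.8, and 40.3 without panda 3) and between 1.14 and 2.996 elsewhere. ANGPTL5, of less known function, was a lung gene at 14.7, 8.69, 28.7, 6.59 and 23.0 (mean 16.3), with no read in any liver or kidney library and 0.147 as its next mean, in the spleen.

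PDGFRL, a protein that resembles the extracellular part of a PDGF receptor, had even heart values, at 43.75, 54.9, 50.1, 54.1 and 58.9 FPKM (mean 52.4 ± 5.73, SD, n = 5). Its highest library outside the heart was the spleen of panda 4, at 11.95, where the other spleens were between 2.38 and 3.94. In that spleen the lung genes SFTPC and SFTPB were at 99.3 and 19.3, above the other 4 spleens, while the third lung marker, AGER, was at 20.8 there and at 13.3 to 22.7 in the others. PDGFRL itself was at 1.28 in the lung of panda 4 and at most 10.2 in any lung. Whether the lung genes in that spleen have a part in its PDGFRL value was not tested. The lung, spleen, kidney and liver means of PDGFRL were 4.94, 4.77, 3.67 and 1.05.

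Ephrins and EPH receptors are both membrane proteins and signal in both directions at cell contacts. The receptor EPHA5 was a spleen gene, at 5.55, 6.44, 11.1, 7.10 and 5.79 FPKM (mean 7.20), with 1.06 in the lung, 0.224 or below in the kidney and heart, and no read in any liver. The receptor EPHB3 was a lung gene, at 15.95, 7.63, 5.235, 5.23 and 12.4 (mean 9.29), with means of 1.90, 0.9125, 0.833 and 0.1645 in spleen, heart, kidney and liver. The ligand EFNB3 was highest in the heart but low, at 2.12, 2.87, 2.31, 0.992 and 1.21 (mean 1.90), and its kidney and spleen libraries overlapped those of the heart, at means of 0.671 and 0.616, with 0.501 in the lung. The liver mean was 0.0350. EGFLAM, a matrix protein named for its EGF-like and laminin-like domains, was between 1.28 and 2.73 in 4 tissues, highest in the spleen, and set apart by the liver, at 0.0139. HHIP, a receptor of hedgehog morphogens that holds back their signal, was at a mean of 36.9 in the lung, 12.9 in the liver, 1.92 in the heart and 0.788 or below elsewhere. The liver of panda 3 held 0.0512 of HHIP, against 12.6 or above in the other livers. With HHIP, all 14 of the 118 pathway genes chosen for comparison that had an identifier have been given. All of them are in the study's tissue list.

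Pairs of tissues that do not include the listed tissue of a gene were not used to choose it, and in these the genes were tested. Each pair was compared with limma on log2(FPKM + 1) over all genes expressed in at least 1 of its tissues. Calls required a log2 difference beyond 2 and a p below 0.05 after Benjamini-Hochberg adjustment over all genes. Of 261 combinations of a gene and such a pair, 138 passed the filter on low values and 18 were called, from 10 genes. The share of all genes called gives the measure for these counts. It was 15.7% between heart and liver, where 1 of 6 of the genes was called, and 23.3% between heart and spleen, with 1 of 14. Between heart and lung, 3 of 16 were called beside 22.9% of all genes, and between heart and kidney 1 of 13 beside 15.3%. For the liver, 3 of 13 were called against the spleen beside 29.9%, 3 of 13 against the lung beside 29% and 1 of 11 against the kidney beside 14%. The spleen differed from the lung for 1 of 18 beside 6.88% and from the kidney for 2 of 17 beside 14.3%. The lung differed from the kidney for 2 of 17 beside 12.2%. The share of these genes was below that of all genes in 9 of the 10 pairs and above it between heart and liver, from 1 to 3 calls in a pair, and the difference of the shares was not tested.

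Heart and liver libraries were lower than spleen and lung libraries over the median of all genes, on the deposited scale. The median log2 difference of all genes tested was 1.285 between spleen and liver, 1.28 between lung and liver, 1.17 between lung and heart, 1.16 between spleen and heart, 0.89 between kidney and liver and 0.76 between kidney and heart. The differences that follow are therefore given with the part above that median. All 18 had the same direction in 5 of 5 pandas, and 15 were without overlap between the libraries of the tissues. Calls are chosen for a large difference, so these counts add no support to them. They were not taken for all called genes. For GDF15 between kidney and heart, the direction and the lack of overlap rested on 1 read in the kidney of panda 4, at 0.0616 FPKM. The highest heart library of GDF15 also had 1 read, at 0.0587, and 3 reads would correspond to at least 0.14. After quantile normalization 6 of the 18 passed, and after TMM rescaling 3, so the values under both scalings are given where a call was lost.

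ANGPT2 was called in 3 pairs, all with the liver as the lower tissue. The spleen was higher than the liver by 3.36 ± 0.302 (SE) in log2, of which 2.08 lay above the median of all genes (limma adjusted p = 2.34e-06). The heart was higher by 2.16 ± 0.3215 (2.01 above the median, limma adjusted p = 0.000174), and the kidney by 2.31 ± 0.479 (1.42 above the median, limma adjusted p = 0.00228). Without the liver of panda 3 the heart difference was 1.99, and without all libraries of that panda the kidney difference was 1.68, both no longer past the threshold of 2. The kidney difference was also 1.47 after quantile normalization and 1.80 after TMM rescaling. The liver-spleen difference of ANGPT2 was among the 2 calls of the 18 that passed under every alternative tried.

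DLL1, the spleen ligand, was also higher in the lung than in the other 3 tissues. The difference was 2.95 ± 0.384 in log2 against the heart, 2.61 ± 0.557 against the liver and 2.29 ± 0.3815 against the kidney, or 1.78, 1.33 and 1.86 above the median of all genes (limma adjusted p at most 0.00115). Without panda 4 the kidney difference was 1.96. Quantile normalization left 1.66, 1.27 and 1.86 for heart, liver and kidney and TMM rescaling 1.67, 1.16 and 1.63, so that no DLL1 call passed, and for the liver limma's adjusted p was 0.0593 and 0.1185. DKK3 was higher in the lung than in the liver by 2.45 ± 0.654 (1.17 above the median, limma adjusted p = 0.00485) and than in the kidney by 2.33 ± 0.315 (1.90 above the median, limma adjusted p = 7.575e-05). Without the liver of panda 3 the first of these was 1.72, and it was 1.40 after quantile normalization and 0.73 after TMM rescaling (limma adjusted p = 0.0285 and 0.290). The kidney difference of DKK3 was 1.65 after TMM rescaling. ANGPTL4 was higher in the lung than in the heart by 2.59 ± 0.471 and than in the liver by 2.33 ± 0.481, or 1.42 and 1.05 above the median (limma adjusted p = 0.0002785 and 0.000917). Neither ANGPTL4 call passed on another scale, with 1.52 and 0.998 after quantile normalization and 1.61 and 1.15 after TMM rescaling.

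Of the ligands, IGF2 was higher than in the heart both in the spleen, by 2.65 ± 0.324, and in the lung, by 2.33 ± 0.590, which were 1.49 and 1.16 above the median of all genes (limma adjusted p = 1.09e-05 and 0.00288). Without panda 1 the lung difference was 1.99 and the call was lost. Both IGF2 calls were lost after quantile normalization, at 1.59 for the spleen and 1.295 for the lung, and after TMM rescaling, at 1.725 and 1.39. FGF1 was higher in the spleen than in the liver by 2.74 ± 0.413 (1.455 above the median, limma adjusted p = 0.000101), a call lost at 1.54 after quantile normalization and 1.71 after TMM rescaling. TGFB3 was higher in the spleen than in the liver by 2.35 ± 0.419 (1.07 above the median, limma adjusted p = 0.000328), which fell to 1.12 and 1.29 on these scales and was no longer called. FGF7 was higher in the spleen than in the kidney by 2.56 ± 0.721 (2.15 above the median, limma adjusted p = 0.0102). This call was lost without panda 1, at 2.06 (limma adjusted p = 0.0602), and after TMM rescaling, at 1.97. GDF15 was higher in the kidney than in the heart by 2.06 ± 0.461 (1.295 above the median, limma adjusted p = 0.00223), with a kidney value of 0.0616 FPKM in panda 4. The difference was 1.77 without panda 1 and 1.89 without panda 5, and the call was lost in both cases. It was also lost after quantile normalization, at 1.61, and TMM rescaling, at 1.86.

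The 14 pathway genes were tested in the same way in the pairs outside their listed tissue, a test chosen after their values had been seen. Of 84 combinations 61 passed the filter on low values, from 11 genes, and 21 were called, from 7 genes. In brackets is the share of all genes called in the pair. The heart had 1 of 4 called against the kidney (15.3%) and 1 of 2 against the liver (15.7%). It had 2 of 5 against the lung (22.9%) and 1 of 3 against the spleen (23.3%). The liver had 3 of 8 against the kidney (14%), 3 of 7 against the lung (29%) and 2 of 5 against the spleen (29.9%). The kidney had 3 of 11 against the lung (12.2%) and 2 of 8 against the spleen (14.3%). Between spleen and lung 3 of 8 were called (6.88%). The difference of the shares was not tested. The protease HPN was higher in the kidney than in the heart and lung, by 5.49 ± 0.511 and 4.16 ± 0.5085 in log2. It was also higher in the liver than in the same tissues, by 5.86 ± 0.659 and 4.53 ± 0.658 (limma adjusted p at most 7.883e-05 for each). Above the median of all genes, these HPN differences were 4.72, 4.59, 6.01 and 5.81. ST14, another membrane protease, was higher in kidney and lung than in liver and spleen, by between 2.89 and 3.42 (limma adjusted p at most 0.00197). Between 2.14 and 3.30 of this lay above the median. The matrix protein LTBP2 was higher in spleen and lung than in heart and kidney, by between 2.65 and 3.34 (limma adjusted p at most 2.693e-05). The LTBP2 differences were between 1.735 and 2.67 above the median. Its lung calls were lost after TMM rescaling, at 1.56 and 1.96. The one against the heart was also lost after quantile normalization, at 1.65. The hedgehog antagonist HHIP was higher in the lung than in the spleen by 4.92 ± 0.241 and than in the kidney by 4.41 ± 0.330 (4.96 and 3.98 above the median, limma adjusted p at most 6.858e-07). In the liver HHIP was higher than in the spleen and kidney by 3.01 ± 0.6845 and 2.50 ± 0.703, in 4 of 5 pandas (4.29 and 3.39 above the median, limma adjusted p = 0.00174 and 0.012). The call against the kidney was lost without panda 1, without panda 5 and with limma-voom. The NOTCH target HEY2 was lower in the liver than in lung, kidney and spleen, where the differences were 2.95 ± 0.195, 2.101 ± 0.248 and 2.03 ± 0.168 (limma adjusted p at most 4.549e-05). Only 1.67, 1.21 and 0.741 of these lay above the median. All 3 HEY2 calls were lost after quantile normalization, at 1.67, 1.215 and 0.944, and after TMM rescaling, at 1.925, 1.685 and 1.17, and the one with the spleen also without panda 3 or panda 5. AREG was higher in the lung than in the heart by 2.30 ± 0.536 (1.13 above the median, limma adjusted p = 0.00169), a call lost without panda 2 and at 1.49 and 1.55 after the same rescalings. HAMP was higher in the lung than in the spleen by 2.755 ± 0.8305 (2.79 above the median, limma adjusted p = 0.0256), a call lost without panda 2, 3 or 5. Its lung libraries held 1.73 to 46.5 FPKM and its spleen libraries 0 to 14.1, against 3443 to 57134 in the liver. Panda 4 was the highest in each of these tissues. Whether the liver level has a part in the HAMP values of lung and spleen was not tested.

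**Figure D5:**
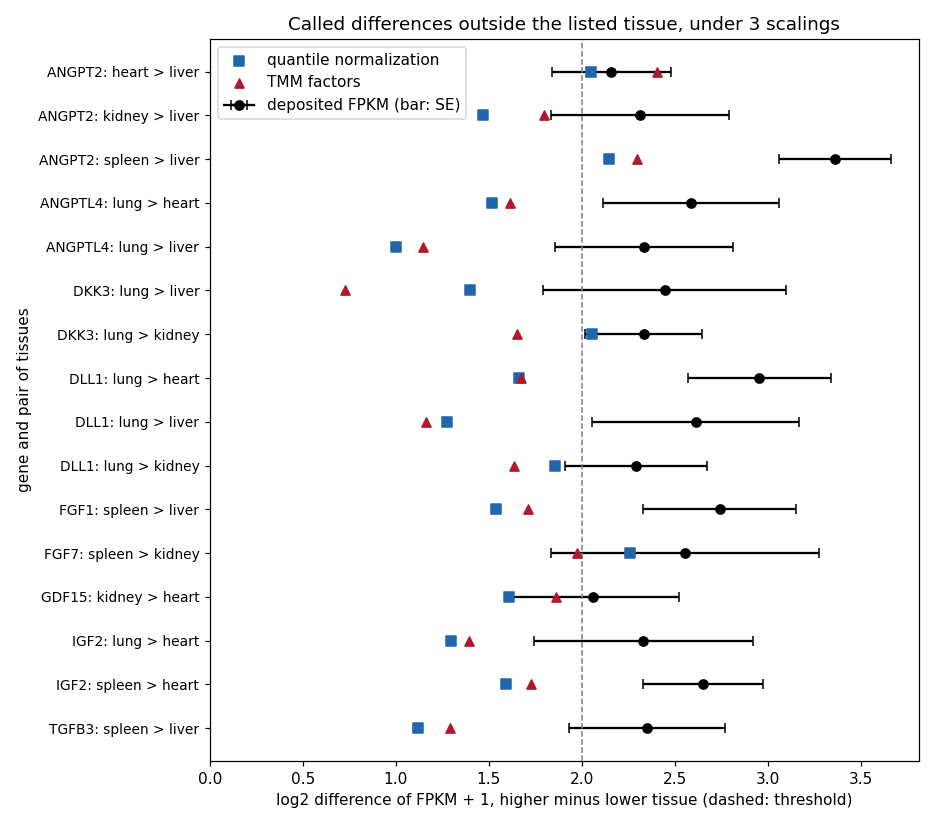
Log2 difference of FPKM + 1, higher minus lower tissue, for 16 of the 18 called combinations of a gene and a pair of tissues outside its listing, on the deposited FPKM (circle, bar for the SE), after quantile normalization (square) and after TMM rescaling (triangle). The dashed line marks the threshold of 2, and most squares and triangles lie to its left.

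Animals aged 0.5 years (3) were compared with those aged 9 and 27 years (2) within each tissue, a contrast that the choice of genes did not use. None of the 44 genes was called by limma in any tissue at a Benjamini-Hochberg adjusted p below 0.05, and neither was any other gene, so the share of all genes called was 0%. Limma-voom on the recovered reads also called none. In heart, liver, spleen, lung and kidney, 17, 22, 24, 29 and 25 of the 44 were expressed and tested. Of these, 4, 1, 3, 0 and 2 had an unadjusted p below 0.05, as had 4.41%, 0.704%, 10.6%, 1.14% and 3.01% of all 12657, 12355, 15346, 15858 and 15173 genes tested. The smallest adjusted p was 0.290, in the spleen, and with 2 and 3 animals a miss does not show that the ages had like levels.

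The heart genes below that unadjusted limit were NPPB, WNT5B, JAG2 and GDF3. NPPB had a mean of 887 FPKM in the young and 3056 in the older hearts, a log2 difference of -2.51 ± 1.06 (SE, young minus older, limma adjusted p = 0.999), and the young hearts were all below the older ones. WNT5B was at 2.51 against 6.03 (log2 difference -1.02 ± 0.386) and JAG2 at 8.62 against 19.1 (-0.96 ± 0.3945), again without overlap. GDF3 went the other way, at 2.30 in the young and 0.981 in the older hearts (0.73 ± 0.313). In the spleen, ANGPTL8 was at 1.77 FPKM in the young and 4.82 in the older animals (-1.07 ± 0.272, limma adjusted p = 0.290). DLL1 was at 100.1 against 140 in the spleen (-0.48 ± 0.184). In the kidney, FGF7 was at 6.37 in the young against 1.25 in the older animals (1.59 ± 0.583) and WNT9A at 7.74 against 22.0 (-1.62 ± 0.684), with the kidney of panda 4 among the young. Without that library 231 genes were called between the ages in the kidney, none of them among the 44. A limma test of whether the age difference varied between tissues called 0 of 18701 genes, and its smallest unadjusted p among the 44 was 0.0338, for NPPB. That test took the 25 libraries as independent and did not use the pairing of libraries by animal.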

How the data were processed

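Messenger RNA of 5 tissues from each of 5 giant pandas was sequenced in 25 libraries. The authors aligned the reads to the genome ailMel1 with HISAT2, assembled further genes with Cufflinks, took read numbers from HTSeq (union mode) and deposited FPKM values, with no stated normalization between libraries. Whole reads were recovered from the steps of these values for 24205 of 24207 genes above 0, within 0.05 reads, and the recovery and the fits were tested on simulated data. A count of 0 allows up to 3 reads, and floors cover counting error only.

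The deposited table pairs no identifier with a symbol, so names came from the study's tissue list, which names 1778 genes and was read from page images. The symbol of BMPR1B was misspelt there and was taken from its description. Of the 44 genes, 41 match a RefSeq symbol. No sequence of them was used here. The values of 2 of the 44 and of 1 marker are not reported here. The genes, the lists and the tests were chosen with earlier results of these data known. The rule for named genes was every gene of the name groups with its tissue means, library values at a mean of at least 1 FPKM in the highest tissue, and their receptors, processing enzymes and targets where an identifier was found.

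Tissue pairs and age groups were fitted on log2(FPKM + 1) in limma 3.58.1 (R 4.3.3), where the variance was allowed to follow the level. This scale understates differences of low genes. Libraries with the same number share an animal by the labels (age, sex and date of death). After removal of tissue means they correlated across genes at between 0.0600 and 0.521 (median 0.367, 49 of 50 pairs above 0.1). Libraries of different animals and tissues lay between -0.469 and 0.377 (median -0.122, 42 of 200 pairs above 0.1), so the ranges overlapped. Figures were drawn with matplotlib 3.10.9.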

Additional observations from a re-analysis of the deposited data

Results flagged for a closer look

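The highest tissue of each of the 44 genes was checked for a library that stands apart from the other 4, with a gap to the nearest over 0.71 of the range, which chance gives for about 1 in 20 groups. Of the 4 cases found, 3 were libraries of panda 3. In the lung of panda 3, ANGPT2 was at 147.7 FPKM with the nearest other lung at 66.5, and FGFR2 was at 52.79 with the nearest at 115. That lung also held more of the B cell genes than the other 4, with MS4A1 at 7.73 against 0.966 to 1.91 and CD79B at 23.4 against 3.49 to 4.57, and had the lowest SFTPB, at 1427.5 against 2413.5 to 5806.7. The other lung markers were not lowest there, with SFTPC at 12095.6 and AGER at 790.4 against 11570 and 771.4 in panda 2. Their part in the ANGPT2 and FGFR2 values was not tested. In the spleen of panda 3, EPHA5 was at 11.13 with the nearest at 7.10. In the liver of panda 1, IGF2 was at 122.9 with the nearest at 33.75.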

How the results depend on the processing

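Of the 44 genes, 39 were highest in their listed tissue on the deposited scale, with medians in place of means, after TMM rescaling, after quantile normalization and without each panda in turn. The list was built on these contrasts, so this count was largely fixed in advance. It does not register EGFLAM and JAG2, listed for their lowest tissue, whose highest tissue moved to the heart under both rescalings. The 18 calls outside the listed tissue depended on the scaling. Quantile normalization left 6 and TMM rescaling 3, all among the 18, since these scalings remove most of the difference in the median of all genes between tissues. With a pseudocount of 0.1 there were 42 calls and with limma-voom on the recovered reads 43, and both included the 18. Without each panda in turn the number lay between 15 and 22. With the panda as a block, which pairs the libraries of an animal, all 18 calls were made again, so the pairing changed no call. All 25 libraries in one fit and no filter on low values also gave 18 calls. Without the liver of panda 3 and the kidney of panda 4, a choice made after seeing the data, there were 18 calls, 16 of them shared. Of the 18, 16 were lost under at least 1 alternative and none changed direction. None of the 44 genes was called between the ages within a tissue under any alternative tried. A block was not possible in these fits since each animal has 1 age. With 3 against 2 animals and 1 library per tissue and animal, small differences could not be detected. Genes such as WNT3A (90 reads in all) and FGFBP1 (115 reads in all) rest on few reads. The 21 calls of pathway genes were 16 after quantile normalization, 15 after TMM rescaling and between 19 and 23 under every other alternative tried, and 21 with the panda as a block.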
